A study of Mus musculus with 12 samples.

Results

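A set of 10 receptors of the tumor necrosis factor (TNF) receptor superfamily was followed in antigen-specific CD4+ T cells while these were being primed with or without IL-6 in their host. The genes were chosen by symbol as members of the family that T cells use, with earlier results of these data known. The set holds Tnfrsf4, Tnfrsf8, Tnfrsf9, Tnfrsf18, Tnfrsf25, Tnfrsf1a, Tnfrsf1b, Tnfrsf26, Cd27 and Fas. They are 10 of the 40840 genes listed in the count tables, and all 10 were among the 13570 genes that passed the filter on low counts. In the study, OTII cells, whose transgenic T cell receptor (strain C57BL/6-Tg(TcraTcrb)425Cbn/J) recognizes a peptide of ovalbumin, were given to WT or Il6-/- (B6.129S2-IL-6tm1Kopf/J) mice, which then received house dust mite (HDM) extract with added LPS plus EndoFit ovalbumin through the nose. The cells were sorted from the mediastinal lymph nodes (mLNs) on Day 3 or Day 5, giving WT Day 3, Il6-/- Day 3, WT Day 5 and Il6-/- Day 5 with 3 libraries each. All 12 libraries therefore came from donor cells with an intact Il6 gene and the same antigen and allergen, and the mutation was in every cell of the recipient but not in the cells sequenced. The number of mice behind a library and their ages are not in the labels, and unsensitized OTII cells are not among these samples. Nothing in the labels says that replicates came from separate mice, so that p-values measure the spread between these libraries, which may be partly technical. Days are those of the sample labels. The submitters add that their manuscript counts from a different starting day.

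TNF receptors are trimeric surface proteins that turn contact with a TNF-type ligand into survival, growth or death signals. One branch carries short cytoplasmic tails that recruit TRAF adaptors and feed NF-kappaB, and its members OX40, GITR, CD137, CD30, TNFR2 and CD27 act on T cells as costimulatory receptors alongside CD28. The other branch carries a cytoplasmic death domain, as in Fas, DR3 and TNFR1, which can lead to caspases or to NF-kappaB. Most of the costimulatory members are low on resting T cells and appear after activation, whereas CD27 is already present on naive cells.

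The libraries looked like CD4+ T cells. Library depth ran from 16125947 to 26111657 counts on genes. Values are CPM, counts scaled by TMM to a library of equal size. The 10 T cell markers summed to 6502 to 7219 CPM in WT and 6195 to 6377 CPM in Il6-/- libraries on Day 3. On Day 5 they summed to 10780 to 11196 and 9492 to 10545 CPM. In Il6-/- recipients Cd28 (log2 fold change -0.48, FDR = 0.0018) and Cd2 (-0.34, FDR = 0.0098) were lower on Day 3. Cd3d was lower on Day 5 (-0.37, FDR = 0.037), and none of the 10 was higher. From Day 3 to Day 5, 10 rose in WT and 9 in Il6-/- recipients, where 29.5% and 30.4% of all genes tested rose. B cell markers summed to at most 11.4 CPM, myeloid and dendritic cell markers to 11.6 to 47.1 CPM, and lung epithelium markers to 0.475 to 20.7 CPM. Among the tested genes of these lists, Pax5 was lower in Il6-/- recipients on Day 3 (log2 fold change -2.26, FDR = 0.039). Sftpc was higher on that day (5.59, FDR = 0.041), with overlapping groups and 9.33 CPM in its highest Il6-/- library. No other gene of them passed between recipients. The tissue label reads blood, whereas the design text names the mLN, and 5 red blood cell genes summed to at most 1.14 CPM. CD8 T and NK cell markers summed to 62.8 to 114 CPM, most of it Cd8b1 at group means of 62.7 to 74.7 CPM. The NK cell gene Klrb1c of this list moved with the recipient. It had group means of 4.82 and 20.9 CPM in WT and Il6-/- recipients on Day 3 (log2 fold change 2.11, FDR = 7.7e-06) and 33.1 and 21.9 CPM on Day 5 (-0.60, FDR = 0.0497), and the interaction was -2.70 (FDR = 1.7e-04). Of the 5 genes of the list that were tested, no other passed between recipients, and the NK cell gene Ncr1 had 0 to 1 counts in a library. Il6 itself had 0 to 5 counts in a library and cannot check the labels, since the recipients and not the donor cells differed. The regulatory T cell list is of interest here because several of these receptors are high on those cells. On Day 3 it summed to 96.7 to 110 CPM in libraries from WT and 107 to 115 CPM in those from Il6-/- recipients, and to 202 to 243 and 249 to 334 CPM on Day 5. Its defining gene Foxp3 had group means of 2.84 to 7.60 CPM and did not pass on either day (FDR = 0.31 and 0.29). Of its 7 genes, Nrp1 was higher in libraries from Il6-/- recipients on both days (log2 fold changes 1.11 and 0.95, FDR = 0.0025 and 0.012), with group means of 22.7 and 49.1 CPM on Day 3 and 91.8 and 178 CPM on Day 5 in WT and Il6-/- recipients, and Ikzf2 was lower on Day 3 (-0.44, FDR = 0.013). The part of these marker genes in the receptor results was not tested. In such bulk samples, fewer cells of a type and less RNA per cell cannot be told apart.

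On the mouse genome (GRCm39, GENCODE vM39), 6 of the 10 genes lie on chromosome 4. Tnfrsf4 (chr4:156098293-156101069) and Tnfrsf18 (chr4:156110621-156113352) are neighbours 9.6 kb apart on the forward strand. Tnfrsf8 (chr4:144993707-145041734) and Tnfrsf1b (chr4:144938938-144973477) are neighbours 20.2 kb apart on the reverse strand. Tnfrsf9 (chr4:150999019-151030559) and Tnfrsf25 (chr4:152200391-152205299) lie between these pairs on the forward strand. Cd27 (chr6:125209585-125213988, reverse) and Tnfrsf1a (chr6:125325566-125339632, forward) are 111.6 kb apart with Ltbr between them. Tnfrsf26 (chr7:143161396-143182459, reverse) stands 4.8 kb from Tnfrsf22 and Fas (chr19:34268001-34305173, forward) stands alone. The authors counted reads without strand, and exons of Tnfrsf18 overlap the antisense gene Gm16008 over 35.9% of their length and those of Tnfrsf25 overlap Espn over 17.1%. Reads there cannot be assigned by strand. Group means of Gm16008 were 0.401 to 1.16 CPM and those of Espn 1.52 to 3.23 CPM, and neither passed a genotype comparison.

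IL-6 and IL-2 both signal through STAT proteins, activation of T cells induces AP-1, and TNF receptors feed NF-kappaB, so the promoters were searched for these letters. RefSeq promoters (250 bases before to 50 after a start, table build GRCm38.p6, each placed on GRCm39 by its single exact match) were at hand for 9 of the 10 genes, 11 promoters in all, with Tnfrsf26 as the missing entry. The STAT core TTCNNNGAA, which reads the same on both strands, stood in 6 of the 11 promoters, those of Tnfrsf1a, Tnfrsf25, Fas, Tnfrsf9, Tnfrsf18 and Tnfrsf1b, and in 8.3% of 32851 mouse promoters of the same length. The AP-1 letters TGANTCA, also the same on both strands, stood in 3 (Fas, Tnfrsf8 and Tnfrsf9) against 7.81%, and the NF-kappaB consensus, searched on both strands, in 2 (Tnfrsf8 and Tnfrsf9) against 4.51%. In Tnfrsf9, 2 NF-kappaB matches overlap each other by all but 1 base. The stretches that lie outside annotated exons are shown with the matched letters in capitals, since they come from receptors that were lower (Fas, Tnfrsf25) and higher (Tnfrsf9) in Il6-/- recipients on Day 3. All are on the forward strand of GRCm39, at chr19:34267941-34268000 and chr19:34267823-34267880 for Fas, chr4:152200759-152200799 for the second Tnfrsf25 start and chr4:151012295-151012354 for the second Tnfrsf9 start.
Fas, STAT: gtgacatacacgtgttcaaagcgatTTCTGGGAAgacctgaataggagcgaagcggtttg
Fas, AP-1: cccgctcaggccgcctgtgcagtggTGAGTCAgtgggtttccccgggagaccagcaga
Tnfrsf25, STAT: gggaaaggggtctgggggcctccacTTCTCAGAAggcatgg
Tnfrsf9, STAT: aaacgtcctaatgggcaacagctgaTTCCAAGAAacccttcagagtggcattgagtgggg
The STAT letters began 93 bases before the start in Fas, 16 before it in Tnfrsf25 and 136 before it in Tnfrsf9. A match describes the letters and does not show binding.

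How much of each receptor mRNA the cells held was compared per kb of exon, since longer genes collect more reads. OX40 mRNA (Tnfrsf4) was the most abundant of the 10 receptors in all 4 groups. It had 154 ± 9.27 CPM per kb in WT Day 3 and 225 ± 10.9 in Il6-/- Day 3 (SD, n = 3). On Day 5 it had 183 ± 24.9 CPM per kb in WT and 221 ± 21.8 in Il6-/- recipients. It made up 40.6% of the summed level of the 10 receptors in WT Day 3, 52.4% in Il6-/- Day 3, 32.9% in WT Day 5 and 40.3% in Il6-/- Day 5. The order of GITR mRNA (Tnfrsf18) and Cd27 in WT recipients depended on the length used. Over all exon bases Tnfrsf18 came next in 3 groups and Cd27 took that place in WT Day 5 at 103 ± 3.87 CPM per kb, while on Day 3 their libraries in WT recipients overlapped at 54.5 to 60.2 and 38.4 to 60.8 CPM per kb. Over the exon bases that no other counted gene overlaps, a length chosen after seeing the data, Tnfrsf18 came next in all 4 groups. It then had 149 ± 4.28 CPM per kb in WT Day 5, where Cd27 had 109 ± 4.10, and on Day 3 its libraries at 85.0 to 93.9 lay above those of Cd27 at 40.7 to 64.4. In Il6-/- Day 3 Tnfrsf18 and Cd27 were apart with either length, at 75.1 ± 5.25 and 22.5 ± 3.94 CPM per kb over all exon bases. No other gene changed rank. CD30 mRNA (Tnfrsf8) had rank 9 of the 10 in WT Day 3 at 8.21 ± 1.29 CPM per kb and rank 5 in Il6-/- Day 3 at 16.8 ± 0.935, where it overlapped Tnfrsf26 below it. On Day 5 it was the lowest of the 10, at 1.41 ± 0.829 and 3.70 ± 1.89 CPM per kb. TNFR1 mRNA (Tnfrsf1a) was the lowest on Day 3 at 5.45 ± 0.123 and 4.33 ± 0.341 CPM per kb. In Il6-/- recipients it overlapped the next gene up, Tnfrsf25, which encodes DR3, though not over the bases free of other genes. Tnfrsf25 overlapped Fas in that group with either length. Fas and Tnfrsf9 overlapped each other on Day 5 in both recipients, as did Tnfrsf9 and Tnfrsf1b in WT recipients and Tnfrsf1b and Tnfrsf26 in Il6-/- recipients.

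**Figure D1:**
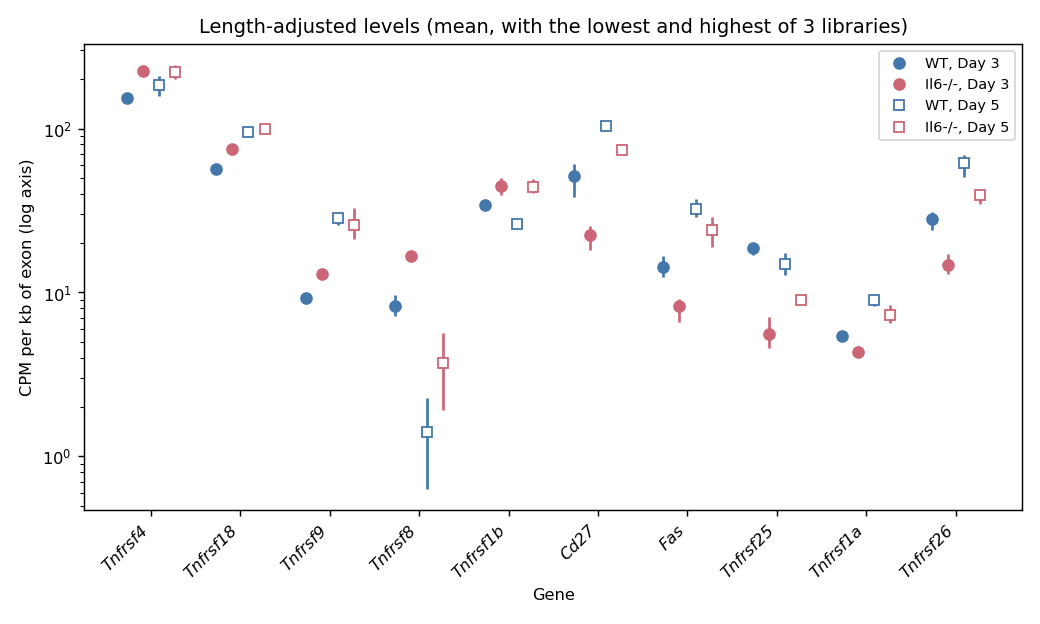
Length-adjusted level of each receptor gene (CPM per kb of exon, log axis) in the 4 groups; points are means of 3 libraries and bars run from the lowest to the highest library. Tnfrsf4 lies at 154 to 225 CPM per kb in all groups, and Tnfrsf8 drops to 1.41 and 3.70 on Day 5.

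The study asked how the absence of IL-6 in the host alters T cell priming. On Day 3 the 10 receptors followed here split into a higher and a lower set. They were chosen with earlier results of these data known, so their share of calls does not describe the family. Of the 10 other receptors of the family that were tested, 1 passed on Day 3 in edgeR, as lower. The TRAF-binding costimulatory receptors Tnfrsf4, Tnfrsf18, Tnfrsf9, Tnfrsf8 and Tnfrsf1b were higher in Il6-/- recipients, 5 of 6 on that list, with Cd27 as the member that was lower. Among the 3 death domain receptors, Tnfrsf25 and Fas were lower and Tnfrsf1a did not pass, and Tnfrsf26 was lower too. In all, 9 of the 10 genes passed at an FDR under 0.05 in edgeR's quasi-likelihood test, beside 13.7% of all genes tested. The 5 higher genes stand beside 7.52% of genes called higher and the 4 lower ones beside 6.19% called lower. Without WT Day 3 replicate 2, or without Il6-/- Day 3 replicate 3, 2 genes were called higher (Tnfrsf4 and Tnfrsf18) and still 4 lower. Without any of the other Day 3 libraries, 3 were called higher and 4 lower. The libraries of the 2 recipients did not overlap for any of the 10 genes, Tnfrsf1a included, as for 36.2% of all genes. The median log2 fold change of the 10 was 0.03, beside 0.01 over all genes tested. Only Tnfrsf25, Cd27 and Tnfrsf8 also reached a 2-fold change, the additional limit used by the study, as did 2.74% of genes.

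**Figure D2:**
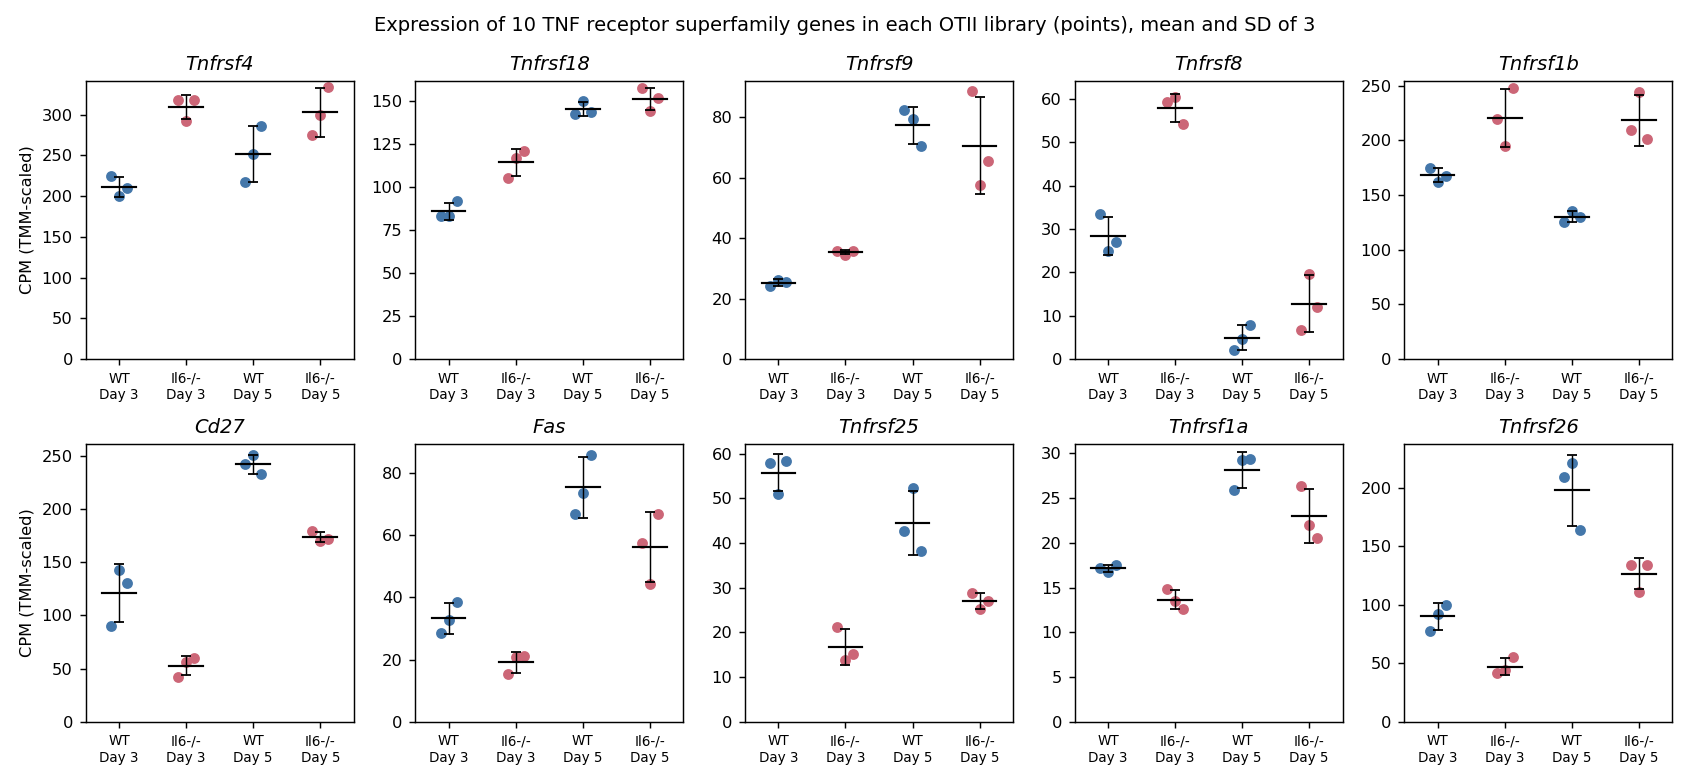
Level of each receptor gene (CPM, linear axis from 0) in every library, with WT recipients in blue and Il6-/- recipients in red; bars give the mean and SD of 3 libraries. On Day 3 blue and red points are apart in all 10 panels, and on Day 5 in Tnfrsf1b, Cd27, Tnfrsf25 and Tnfrsf26, while in Fas the nearest points nearly touch.

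The largest fold difference of the family on Day 3 was in Tnfrsf25, which encodes DR3, the death domain receptor for TL1A and a costimulator of T cells. The 3 WT libraries had 58.0, 50.9 and 58.2 CPM and the 3 Il6-/- libraries 21.2, 13.8 and 15.2 CPM. The lowest WT library was thus 29.7 CPM above the highest Il6-/- library. The level fell by 1.74 on the log2 scale (SE 0.15, FDR = 8.3e-06), which is 3.33-fold lower in Il6-/- recipients. Cd27, the receptor for CD70 that naive T cells carry, had 90.1, 142 and 130 CPM in WT and 42.3, 56.2 and 59.8 CPM in Il6-/- libraries. WT replicate 1 lay well under the other WT libraries but still above all Il6-/- libraries. Cd27 was 2.29-fold lower, a log2 fold change of -1.19 (SE 0.15, FDR = 1.3e-04).

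Tnfrsf26, a mouse receptor gene related to the TRAIL receptors, had 77.8, 92.3 and 100.2 CPM in WT and 41.9, 44.1 and 55.3 CPM in Il6-/- libraries. The groups were 22.6 CPM apart, with a log2 fold change of -0.93 (SE 0.14, FDR = 4.4e-04). Fas, the receptor through which FasL triggers death of activated T cells, had 28.7, 32.6 and 38.6 CPM in WT and 15.3, 20.9 and 21.2 CPM in Il6-/- libraries. All Il6-/- libraries were under the WT range, with a log2 fold change of -0.80 (SE 0.17, FDR = 0.0056). Tnfrsf1a, encoding TNFR1, the broadly expressed receptor for TNF and lymphotoxin alpha, had 17.2, 16.8 and 17.5 CPM in WT and 14.8, 13.5 and 12.7 CPM in Il6-/- libraries. These groups were also apart, but the log2 fold change of -0.33 (95% interval -0.59 to -0.07) had an FDR of 0.084 and did not pass. It passed without TMM scaling and in a fit of the 6 Day 3 libraries alone.

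Among the higher genes, Tnfrsf4 had the highest level per kb. Its product OX40 binds OX40L and sustains the division and survival of activated CD4+ T cells. The WT libraries had 225, 200 and 210 CPM and the Il6-/- libraries 318, 292 and 318 CPM, so that every Il6-/- library exceeded every WT library by at least 67.1 CPM. The log2 fold change was 0.55 (SE 0.10, FDR = 0.0021), or 1.46-fold higher. Its neighbour Tnfrsf18, encoding the costimulatory receptor GITR, had 83.5, 83.0 and 91.7 CPM in WT and 106, 117 and 121 CPM in Il6-/- libraries. The groups were 13.9 CPM apart, with a log2 fold change of 0.41 (SE 0.08, FDR = 0.0025). Tnfrsf1b, encoding TNFR2, the TNF receptor without a death domain, had 175, 162 and 167 CPM in WT and 219, 195 and 248 CPM in Il6-/- libraries. The Il6-/- libraries spread more widely than the WT ones but all lay above them, and the log2 fold change was 0.39 (SE 0.10, FDR = 0.013). Leaving out Il6-/- Day 3 replicate 3 ended this call (FDR = 0.068).

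Tnfrsf9 encodes CD137, a costimulatory receptor of recently activated T cells. It had 24.2, 26.3 and 25.4 CPM in WT and 35.7, 34.5 and 35.8 CPM in Il6-/- libraries, narrow groups that were 8.22 CPM apart. The log2 fold change was 0.48 (SE 0.13, FDR = 0.023), and it kept an FDR under 0.05 in 6 of 12 fits with 1 library left out, the highest FDR being 0.073 without Il6-/- Day 3 replicate 1. Tnfrsf8 encodes CD30, found on activated lymphocytes. The WT libraries had 33.4, 24.8 and 27.0 CPM and the Il6-/- libraries 59.2, 60.4 and 54.3 CPM, so that the groups were far apart. The log2 fold change was 1.03, a 2.04-fold higher level, but its SE of 0.32 was the widest of the 10 receptors and the FDR was 0.043. The call held in 4 of 12 fits with 1 library left out and rose to an FDR of 0.16 without WT Day 3 replicate 2. It also did not hold without TMM scaling, in DESeq2 or with the replicate number as a block across the 4 groups.

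**Figure D3:**
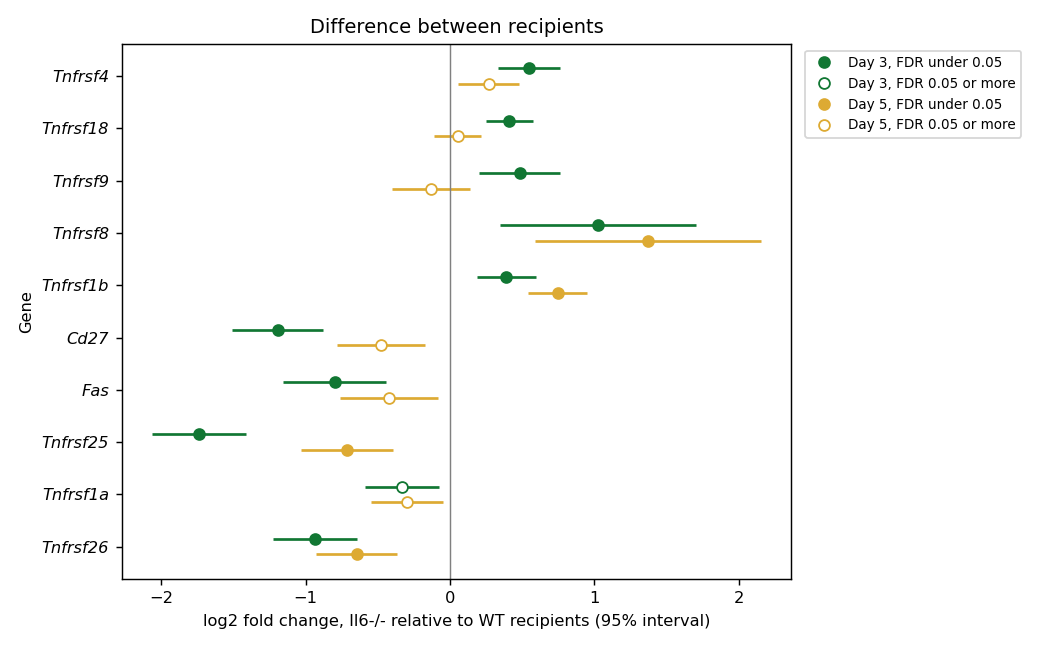
Log2 fold change of each receptor gene in Il6-/- relative to WT recipients on Day 3 (green) and Day 5 (yellow), with 95% intervals from edgeR's quasi-likelihood fit; filled points passed at an FDR under 0.05. On Day 3 there are 9 filled points, 5 to the right and 4 to the left of 0, and on Day 5 there are 4.

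On Day 5, 4 of the 10 genes passed, beside 4.61% of all genes tested. Tnfrsf1b and Tnfrsf8 were higher in Il6-/- recipients, where 1.27% of all genes were, and Tnfrsf25 and Tnfrsf26 were lower, where 3.35% of genes were. All 4 had moved the same way on Day 3. Libraries did not overlap for 5 of the 10 genes, beside 19.6% of all genes, and the median log2 fold change was -0.21, beside 0.01 over all genes. On Day 5 libraries with the same replicate number deviated together. With the number as a block within each day 7 of the 10 genes passed. Cd27 and Fas were added among the lower and Tnfrsf4 among the higher genes. The same block raised the number passing among all 13570 genes tested from 626 to 1592. On Day 3, where the numbers did not pair the libraries, this block also lowered the FDR of every receptor but Tnfrsf1a. The FDR of Tnfrsf8 went from 0.043 to 0.0012 and that of Cd27 from 1.3e-04 to 3.7e-07. For Tnfrsf1a it went from 0.084 to 0.091. What lowered the FDR on Day 5 was not tested. Proliferation markers, 8 genes, summed to 508 to 786 CPM in WT and 673 to 1350 CPM in Il6-/- libraries on that day, and their part in these differences was not tested.

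Tnfrsf1b had the lowest FDR of the family on Day 5, with 125, 135 and 130 CPM in WT and 209, 245 and 201 CPM in Il6-/- libraries. The lowest Il6-/- library was 66.2 CPM above the highest WT library. This is a log2 fold change of 0.75 (SE 0.10, FDR = 0.0011), or 1.68-fold higher, and it held in all 12 fits with 1 library left out. Tnfrsf25 had 42.8, 52.4 and 38.2 CPM in WT and 28.9, 25.3 and 27.1 CPM in Il6-/- libraries. The groups stayed apart with a smaller gap than on Day 3, and the log2 fold change was -0.71 (SE 0.15, FDR = 0.013). The FDR was 0.073 without WT Day 5 replicate 2.

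Tnfrsf26 had 209, 221 and 164 CPM in WT and 134, 111 and 134 CPM in Il6-/- libraries. WT replicate 3 was the lowest of its group but lay above all Il6-/- libraries, and the log2 fold change was -0.65 (SE 0.13, FDR = 0.012). The FDR was 0.067 without Il6-/- Day 5 replicate 2. Tnfrsf8 was by then a low gene, with 2.19, 4.57 and 7.90 CPM in WT and 6.67, 19.7 and 12 CPM in Il6-/- libraries. The groups overlapped, with Il6-/- replicate 1 under WT replicate 3. This was the member that also reached a 2-fold change on Day 5, as did 1.14% of all genes. Its log2 fold change of 1.37 (SE 0.37) passed narrowly at an FDR of 0.046, kept an FDR under 0.05 in 3 of 12 fits with 1 library left out and had an FDR of 0.22 without Il6-/- Day 5 replicate 2. The call was also lost with the replicate number as a block across the 4 groups (FDR = 0.056) and in the 6 Day 5 libraries alone (FDR = 0.15), whereas the block within each day gave an FDR of 0.0014.

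Cd27 had 243, 251 and 233 CPM in WT and 179, 170 and 172 CPM in Il6-/- libraries on Day 5, tight groups that were 53.5 CPM apart. Its log2 fold change of -0.48 (SE 0.14) had an FDR of 0.069. It passed with the replicate block within each day (FDR = 6.6e-04), without a filter on low counts (5.8e-05), in DESeq2 (0.031) and in the 6 Day 5 libraries alone (0.016), 4 of 8 other settings. Fas had 66.7, 73.6 and 85.9 CPM in WT and 57.6, 44.2 and 66.7 CPM in Il6-/- libraries. The highest Il6-/- and the lowest WT library touched. Its log2 fold change of -0.42 (95% interval -0.76 to -0.08) had an FDR of 0.15, and passed with the block (FDR = 0.015) or when low genes were kept (FDR = 0.0080). Tnfrsf4 had 218, 251 and 286 CPM in WT and 275, 300 and 335 CPM in Il6-/- libraries. The groups overlapped, while each Il6-/- library was above the WT library of its number. The log2 fold change of 0.27 (95% interval 0.06 to 0.48) had an FDR of 0.14, and of 0.0077 with the block.

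The other 3 genes showed no call on Day 5 with either design. Tnfrsf9 had 82.3, 79.4 and 70.4 CPM in WT and 88.8, 57.5 and 65.6 CPM in Il6-/- libraries, and Il6-/- replicate 1 was the highest of all 6. Its log2 fold change was -0.13 with a 95% interval of -0.40 to 0.14. Tnfrsf18 had 143, 150 and 144 CPM in WT and 158, 144 and 152 CPM in Il6-/- libraries, groups that lay across each other. Its log2 fold change was 0.06 with a 95% interval of -0.11 to 0.22. The estimate of 0.41 on Day 3 lies outside it but has an error of its own. The test of a change between the days did not pass (-0.36, FDR = 0.072 in edgeR's interaction test). Tnfrsf1a had 25.9, 29.3 and 29.4 CPM in WT and 26.4, 22.0 and 20.5 CPM in Il6-/- libraries. These overlapped through Il6-/- replicate 1, and the log2 fold change was -0.30 (95% interval -0.54 to -0.05, FDR = 0.17).

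Whether the difference between recipients changed from Day 3 to Day 5 was tested as an interaction, in which 4.92% of all genes passed, 1.8% with a difference between recipients that was more positive on Day 5, 3.12% with one that was more negative, and 1.38% by at least 2-fold. Tnfrsf25 was the member that passed, with a difference between recipients that was smaller on Day 5 by 1.02 on the log2 scale (SE 0.21, FDR = 0.015). It held in all 12 fits with 1 library left out, the highest FDR being 0.048. Cd27 moved in the same way by 0.72 (SE 0.20) and missed the threshold at an FDR of 0.056, while 6 of 7 other settings gave an FDR under 0.05. For Tnfrsf9 (-0.61, FDR = 0.066) and Tnfrsf18 (-0.36, FDR = 0.072), the change also fell short of the threshold, so that their loss of a call on Day 5 is not shown to be a change of the effect. With the replicate block within each day 6 of the 10 genes passed, adding Cd27, Tnfrsf9, Tnfrsf18, Tnfrsf4 and Tnfrsf1b. The same block raised the number passing among all 13570 genes tested from 668 to 1564. This block pairs libraries on both days, although on Day 3 the replicate numbers did not pair them. The added interaction calls therefore rest on a pairing that was not seen on Day 3.

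The passage from Day 3 to Day 5 changed most of these receptors in both recipients. In WT recipients 7 of the 10 genes rose and 2 fell, beside 56.7% of all genes passing (29.5% higher, 27.1% lower), and in Il6-/- recipients 7 rose and 1 fell, beside 60.5% (30.4% higher, 30.1% lower). A 2-fold change was reached by 22.1% and 25.9% of all genes. Libraries of the days did not overlap for 8 of the 10 genes in either recipient, beside 63.3% and 65.8% of all genes. So many genes moved between the days that these shares say little about the family as such, and the median log2 fold changes of the 10 were 0.74 and 0.72 beside 0.09 for all genes in each. The summed proliferation markers went from 4213 to 4569 CPM to 508 to 786 CPM in WT and from 4481 to 4650 CPM to 673 to 1350 CPM in Il6-/- recipients. Day 5 libraries also had more reads outside genes, 15.2 to 17.3% against 11.7 to 12.9% on Day 3, and fewer counted on genes, 52.5 to 56.7% against 60.2 to 62.2%. The part of either in the day changes was not tested. These comparisons use the same libraries as those between recipients, so the values are given side by side.

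CD30 mRNA fell in both recipients. Tnfrsf8 decreased by 2.53 on the log2 scale in WT (SE 0.36, FDR = 2.7e-05) and by 2.18 in Il6-/- recipients (SE 0.34, FDR = 4.7e-05), which is 5.78-fold and 4.55-fold lower. Every Day 5 library was below every Day 3 library of its recipient. Tnfrsf9 rose by 1.61 in WT (SE 0.13, FDR = 1.2e-07) and by 1.00 in Il6-/- recipients (SE 0.13, FDR = 8.2e-06). Fas rose by 1.18 in WT (SE 0.16, FDR = 1.9e-05) and by 1.55 in Il6-/- recipients (SE 0.17, FDR = 1.4e-06). The days did not overlap for either gene.

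Cd27 rose by 1.00 in WT (SE 0.14, FDR = 2.9e-05) and by 1.72 in Il6-/- recipients (SE 0.15, FDR = 1.5e-07). Tnfrsf26 rose by 1.14 (FDR = 4.0e-06) and 1.43 (FDR = 4.2e-07), Tnfrsf1a by 0.72 (FDR = 1.0e-04) and 0.75 (FDR = 6.5e-05), and Tnfrsf18 by 0.76 (FDR = 9.3e-07) and 0.40 (FDR = 3.3e-04). For these genes too every Day 5 library lay above every Day 3 library of the same recipient. Tnfrsf25 rose in Il6-/- recipients by 0.70 (SE 0.15, FDR = 0.0011), from a mean of 16.7 to 27.1 CPM, and had a log2 fold change of -0.33 (FDR = 0.068) in WT recipients. Tnfrsf1b fell in WT by 0.37 (SE 0.10, FDR = 0.0039) and had a log2 fold change of -0.02 in Il6-/- recipients (95% interval -0.22 to 0.19). For Tnfrsf4 the values were 0.25 (FDR = 0.042) in WT, where the days overlapped and the call was lost in 8 of 12 fits with 1 library left out, with an FDR of 0.23 without WT Day 5 replicate 3, and -0.03 (95% interval -0.24 to 0.18) in Il6-/- recipients.

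**Figure D4:**
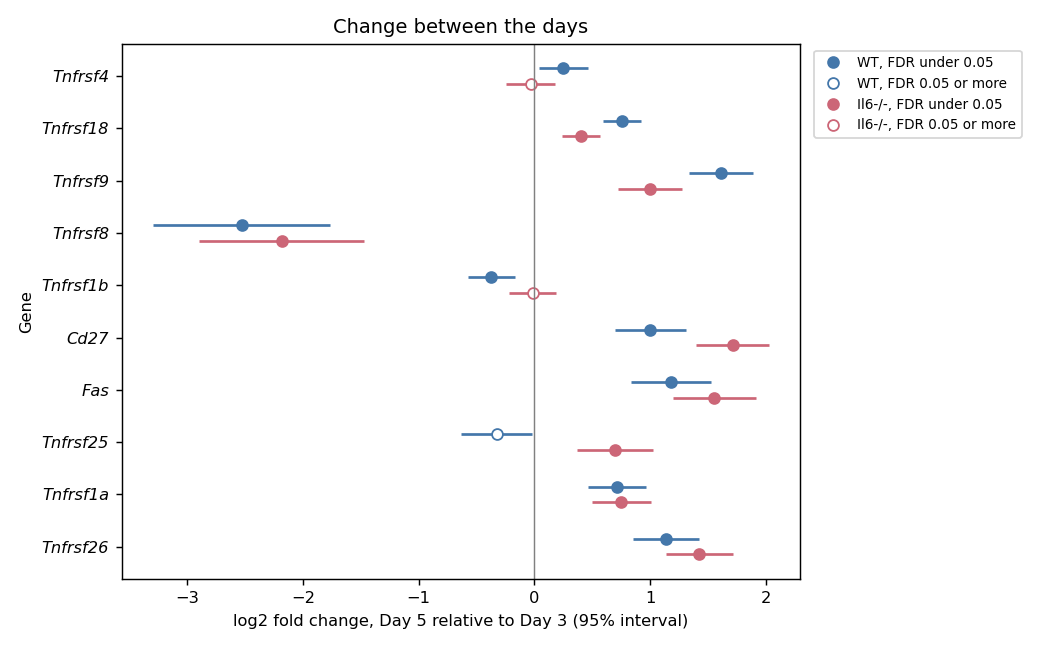
Log2 fold change of each receptor gene on Day 5 relative to Day 3 in WT (blue) and Il6-/- recipients (red), with 95% intervals; filled points passed at an FDR under 0.05. Tnfrsf8 lies at -2.53 and -2.18, while Tnfrsf9, Fas, Cd27, Tnfrsf26, Tnfrsf1a and Tnfrsf18 lie to the right of 0 in both recipients.

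Over the 12 libraries, the correlation of log2 CPM between the 45 pairs of receptors ran from -0.95 to 0.98 with a median of 0.31 (Pearson's r). The libraries come in 4 groups, so r includes the differences between group means. The closest pair was Cd27 and Tnfrsf26 (r = 0.98), followed by Fas with Cd27 (r = 0.96) and Fas with Tnfrsf26 (r = 0.96), genes on 3 different chromosomes. Tnfrsf8 ran opposite to them, with r = -0.95 against Tnfrsf26 and -0.90 against Cd27. Among all genes tested, the closest to Tnfrsf25 were Rtp4 (r = 0.96), Il17re (r = 0.95) and Tox2 (r = 0.93), the closest to Tnfrsf26 was the T cell receptor constant gene Trbc2 (r = 0.99), and the closest to Tnfrsf4 were Cd83 (r = 0.93), S1pr3 (r = 0.92) and Serpinc1 (r = 0.92). Sp110 and the death gene Bcl2l11 (both r = 0.99) were closest to Tnfrsf9, Ube2w to Tnfrsf18 (r = 0.99), Degs1 to Tnfrsf8 (r = 0.99), Yipf3 to Fas (r = 0.99), Ryr3 to Tnfrsf1a (r = 0.98) and Tmco3 to Tnfrsf1b (r = 0.92).

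The remaining family members and the partners of these receptors were counted from lists. Of 18 other receptors of the family, 10 were tested, and on Day 3 only Tnfrsf14 passed in edgeR, and 2 were lower in DESeq2, beside the 13.7% of all genes. Tnfrsf14 encodes HVEM, which binds LIGHT and BTLA. It had means of 159 ± 6.39 and 118 ± 8.99 CPM in WT and Il6-/- recipients (SD, n = 3) and groups that did not overlap (log2 fold change -0.43, FDR = 0.0035). None of the 10 passed on Day 5 in edgeR, where 0 had an unadjusted p under 0.05, nor any of the 9 with an adjusted p in DESeq2. Tnfrsf22, next to Tnfrsf26 on the chromosome, had means of 14.4 and 15.8 CPM on Day 3 and 15.4 and 16.0 CPM on Day 5, with a log2 fold change of 0.14 (FDR = 0.58) on Day 3. Its groups overlapped on both days. Tnfrsf23, 16.1 kb from Tnfrsf22, had low means of 1.57 and 0.554 CPM in WT and Il6-/- recipients on Day 3. Those groups did not overlap, but the log2 fold change of -1.49 had an FDR of 0.062 and did not pass in edgeR. On Day 5 the means of Tnfrsf23 were 1.67 and 1.80 CPM, with overlapping groups.

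Among 10 ligands of the receptors, 7 were tested, and Tnfsf18, Tnfsf15 and Cd70, the ligands of GITR, DR3 and CD27, were at or near 0 in all groups. Lta, encoding lymphotoxin alpha, which binds TNFR1 and TNFR2, was higher in Il6-/- recipients on both days. Its means were 42.7 ± 1.17 and 89.3 ± 10.7 CPM in WT and Il6-/- recipients on Day 3, and 60.1 ± 5.69 and 78.6 ± 4.46 CPM on Day 5 (SD, n = 3), and the recipients did not overlap on either day. The log2 fold changes were 1.06 (SE 0.10, FDR = 1.3e-05) and 0.39 (SE 0.10, FDR = 0.037), and their difference of -0.68 passed as an interaction (FDR = 0.015). Fasl, the ligand of Fas, was also higher in Il6-/- recipients on Day 3 at a very low level, with 1.12 ± 0.687 and 2.75 ± 0.745 CPM (log2 fold change 1.28, FDR = 0.021), the day on which Fas was lower. All 7 ligands rose from Day 3 to Day 5 in WT and 5 in Il6-/- recipients, where 29.5% and 30.4% of all genes did. Tnfsf8, the ligand of CD30, rose from 59.7 to 238 CPM in WT and from 73.5 to 248 CPM in Il6-/- recipients while Tnfrsf8 fell. Tnfsf4, the ligand of OX40, rose from 0.963 to 15.5 CPM and from 1.12 to 12 CPM.

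Downstream of the receptors, Siva1 passed on Day 3 and Traf5 on Day 5 among the adaptors, and of the NF-kappaB genes 6 passed on Day 3 and 3 on Day 5, beside 13.7% and 4.61% of all genes tested. Of 16 adaptor and death signaling genes, all tested, Siva1, whose product binds the tail of CD27, was higher on Day 3 in Il6-/- recipients (log2 fold change 0.38, FDR = 0.046) and Traf5, an adaptor of several of these receptors, on Day 5 (0.30, FDR = 0.045). None was lower in edgeR or DESeq2, with 2 lower on Day 3 and 0 on Day 5 at an unadjusted p under 0.05. Of 14 NF-kappaB subunits and inhibitors, 4 were higher and 2 lower on Day 3. Rel, encoding the c-Rel subunit, had means of 30.1 ± 2.09 and 50.1 ± 4.10 CPM in WT and Il6-/- recipients (log2 fold change 0.73, FDR = 0.0013), and Nfkbid, an atypical inhibitor family member, had 108 ± 5.99 and 162 ± 4.70 CPM (0.59, FDR = 3.6e-04). The other two higher genes had smaller changes. The lower genes were also atypical members of the inhibitor family, Nfkbiz (-0.68, FDR = 8.5e-04) and Bcl3 (-1.06, FDR = 0.0091). On Day 5 none of the 14 was higher in edgeR, with 3 higher at an unadjusted p under 0.05 and 2 in DESeq2, and 3 were lower, namely Bcl3 (-1.24, FDR = 0.011), the noncanonical subunit gene Relb (-0.50, FDR = 0.018) and Chuk, encoding a kinase of the inhibitors (-0.40, FDR = 0.030).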

How the data were processed

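Poly(A) RNA of ultra-low input from OTII cells was sequenced from 1 end over 50 bp. Trim Galore 0.4.4 (trimming), STAR 2.5.2a (alignment, GRCm39) and HTSeq 0.6.1p1 (counting, strand ignored) were the authors' tools, per the paper's methods and the submitters' processing notes, and the deposited files hold raw counts per gene for each of 12 libraries. A deposited table of scaled values was not used. Groups came from the labels. The counts went into edgeR 4.0.16 under R 4.3.3: filterByExpr left 13570 of 40840 genes, libraries were scaled by TMM (factors 0.944 to 1.06), and 1 quasi-likelihood model with a coefficient per group was fitted to all libraries (prior degrees of freedom 7.00). The SE is the log2 fold change over the root of F, and FDR is the Benjamini-Hochberg value over all genes tested. The study's own methods, edgeR with a 2-fold limit, guided the design, and the 2-fold call was kept as an alternative. A permutation test of 3 against 3 libraries has 20 labelings and a smallest p of 0.1, so none is given for single genes.

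The 10 receptors, the partner lists and the motifs were chosen with earlier results of these data known. All 10 receptors are named. From each other list, up to 4 genes per comparison of recipients with the smallest p among those passing are named, plus ligands, chromosome neighbours and exon-overlapping genes, and 3 closest genes by correlation were sought for each receptor. Exon lengths, positions and overlaps came from GENCODE vM39 on GRCm39. The annotation behind the counts was not used here. The model was tested on simulated counts with known changes before use. Those counts were drawn from the model's own estimates, with changes of at least 2-fold. The simulation therefore does not bear on smaller changes or on libraries that deviate together.

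Same-numbered libraries of the 2 recipients deviated together on Day 5 (r = 0.24, 0.21 and 0.13 over genes) but not on Day 3 (r = 0.03, 0.06 and 0.03). By a limit of 0.1 the numbers were taken to pair libraries on Day 5, from the data and not from the labels. Some differently numbered libraries of different days also exceeded 0.1. WT Day 3 replicate 3 had r = 0.125 with Il6-/- Day 5 replicate 2 and 0.110 with WT Day 5 replicate 2. The limit therefore does not by itself show pairing, and calls made with the block depend on it. Values with the block within each day, or across the 4 groups, are given where they change a Day 5 call. Some are also given for Day 3 and for the interaction. Alternatives were RLE or no scaling, other filters, DESeq2 1.42.0, replicate blocks, libraries of 1 day alone, leaving out each library and, added after seeing the data, levels per kb of exon free of other counted genes. Counting error is small at this depth, and the lowest receptor value (Tnfrsf8 in a WT Day 5 library) rests on 43 reads.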

Additional observations from a re-analysis of the deposited data

Results flagged for a closer look

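The difference in Tnfrsf25 between recipients changed with the day. It was smaller on Day 5 than on Day 3 by 1.02 on the log2 scale (SE 0.21, FDR = 0.015 in edgeR's interaction test). The log2 fold changes were -1.74 on Day 3 and -0.71 on Day 5, with the Il6-/- libraries below the WT libraries in all comparisons on both days. Espn, whose exons overlap those of Tnfrsf25 on the other strand, had an interaction of 0.03 (FDR = 0.99).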

How the results depend on the processing

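Of the 350 log2 fold changes of the receptors refitted under other settings, 314 kept their direction and side of the threshold, 25 passed anew, 8 no longer passed and 3 changed sign; with 1 library left out, the counts were 543, 8, 39 and 10 of 600. The sign changes were in values near 0: without scaling, Tnfrsf4 (0.12) and Tnfrsf1b (0.14) between the days in Il6-/- recipients, and Tnfrsf1b there with a filter of more than 1 CPM in 3 libraries (0.0065). Without scaling, the median of all genes moved to 0.10 in the interaction, 0.14 between days in WT and 0.24 in Il6-/- recipients. Leaving out 1 library turned Tnfrsf9 on Day 5 (-0.33 to 0.023), Tnfrsf8 (-0.042 to 0.89) and Tnfrsf1a (-0.075 to 0.12) in the interaction, and Tnfrsf4 (-0.11 to 0.034) and Tnfrsf1b (-0.10 to 0.072) between the days in Il6-/- recipients.

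With the 2-fold limit, 3 receptors passed on Day 3, 1 on Day 5, 5 between days in WT and 4 in Il6-/- recipients, and 372, 155, 2996 and 3509 of all genes, with 187 in the interaction. On Day 5, 626 genes passed in the fit reported, 1397 without a filter, 1127 in DESeq2, 1592 with the replicate block within each day and 359 with 6 libraries alone. With that block 7 receptors passed on Day 5. In the interaction, 1 receptor passed in the fit reported, 2 with RLE scaling, without scaling or with the replicate block across the groups, 3 without a filter, 4 in DESeq2 and 6 with the block within each day, with 668 of all genes in the fit reported, and 1300 without a filter, 1132 in DESeq2 and 1564 with the block within each day. The causes were not tested. With 1 library left out, 6 to 9 receptors passed on Day 3, 1 to 5 on Day 5, 1 to 2 in the interaction, 8 to 9 between days in WT and 8 in Il6-/- recipients. Over all genes the ranges were 942 to 2042, 225 to 1169, 235 to 943, 6837 to 7783 and 7440 to 8283. The lowest count of receptors on Day 3 came without WT replicate 2 or Il6-/- replicate 3, and on Day 5 without WT or Il6-/- replicate 2. Among the receptors, the calls of Tnfrsf8 between recipients rest on the widest SE, although its fold changes exceed 2, and its changes between days held in every fit with 1 library left out.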
